A study of Mus musculus with 4 samples.

Results

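The genes described here are 33 genes of the unfolded protein response and of protein folding in the endoplasmic reticulum, chosen by symbol from the 55357 features of a mouse single-cell RNA sequencing data set. All 33 were present in the files. They comprise 11 chaperones and co-chaperones, 4 disulfide isomerases, 7 genes of protein translocation and degradation, 7 sensors and transcription factors, and 4 targets linked to the transcription factor ATF4. The data came from the ascending aorta of wild-type (WT) male mice that received BAPN (beta-aminopropionitrile, which blocks the enzymes that cross-link the elastic and collagen fibres of the wall) at 1 g/kg/d in their drinking water for 4 weeks from the age of 3 weeks, a model of aortic dissection (AD). Mice of the AD group (2 libraries) had the model alone, and mice of the AD_ABR group (2 libraries) also received paquinimod (the ABR of the group name, a small molecule that binds S100A9) at 10 mg/kg/d into the stomach. All 4 libraries therefore carry the BAPN treatment, none comes from an untreated aorta, and the comparison is AD_ABR against AD. The labels do not say whether libraries of 1 group came from separate mice, so the p-values measure the spread between these libraries, which may be technical.

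Secreted and membrane proteins are folded in the endoplasmic reticulum (ER), a task that is large in smooth muscle cells and fibroblasts because they secrete the collagens and elastin of the aortic wall. When unfolded proteins accumulate, 3 sensors in the ER membrane, PERK (encoded by Eif2ak3), IRE1 (Ern1) and ATF6, start the unfolded protein response. IRE1 splices Xbp1 mRNA into the form that encodes an active transcription factor, ATF6 is cut to release another, and PERK phosphorylates a translation factor, which lowers protein synthesis and raises translation of ATF4. XBP1 and ATF6 are known to raise genes of chaperones and of ER-associated degradation, and ATF4 raises genes of amino acid and one-carbon metabolism. The 3′ counts used here measure transcript abundance, and they show neither Xbp1 splicing, nor cleavage of ATF6, nor translation of ATF4.

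Promoters of several of these genes carry a known binding sequence of ATF6 and XBP1, the ER stress response element (ERSE), and the sequences are shown because they set a shared feature of the genes beside their measured changes. RefSeq promoters (GRCm38.p6, 250 bases before to 50 bases after a gene's start) were matched for 29 of the 33 genes, and Manf, Atf6, Hyou1 and Derl1 were not matched. ERSE, searched on both strands as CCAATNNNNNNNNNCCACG, was found in 8 of the 29 genes (27.6%), against 0.137% of all 27025 genes with a promoter. The 8 genes were Hspa5, Hsp90b1, Calr, Canx, Creld2, Dnajc3, Pdia6 and Syvn1, and Hsp90b1 had a pair of matches. The related ERSE-II, searched as ATTGGNCCACG, was found in Herpud1 and Dnajb11, 2 of 29 (6.90%) against 0.0444% of genes. No match to either overlapped another of the motifs searched. The genes were picked for this response and the motifs for its factors, so these shares are background and no result of these data. The matches before the start are given 5′ to 3′ along the strand of the motif, with the fixed bases in capitals. The Dnajb11 match lay after the start.
Hspa5 ERSE, 65 to 47 bases before the start: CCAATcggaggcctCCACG
Hsp90b1 ERSE, 212 to 194 bases before the start: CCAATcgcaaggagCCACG
Hsp90b1 ERSE, 107 to 89 bases before the start: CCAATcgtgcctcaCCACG
Creld2 ERSE, 126 to 108 bases before the start: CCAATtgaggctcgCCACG
Dnajc3 ERSE, 105 to 87 bases before the start: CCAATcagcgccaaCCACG
Pdia6 ERSE, 98 to 80 bases before the start: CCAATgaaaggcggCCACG
Syvn1 ERSE, 44 to 26 bases before the start: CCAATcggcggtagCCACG
Calr ERSE, 162 to 144 bases before the start: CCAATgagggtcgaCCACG
Canx ERSE, 145 to 127 bases before the start: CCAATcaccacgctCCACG
Herpud1 ERSE-II, 52 to 42 bases before the start: ATTGGgCCACG

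The surroundings of the motif are shown for Creld2 and Dnajc3, which carry ERSE, for Herpud1, which carries ERSE-II, and for Sdf2l1, which had a large change in the cells described below and in which none of these letters was found. Each sequence holds the 250 bases before the start on the strand of the gene, with the motif in capitals. The Creld2 stretch is chr15:88819396-88819645 (plus strand), where the motif lies on the opposite strand, Dnajc3 is chr14:118937682-118937931 (plus strand), Herpud1 is chr8:94386179-94386428 (plus strand) and Sdf2l1 is chr16:17132384-17132633 (minus strand), all GRCm38.p6. A match is a stretch of letters and not a measured binding site, and a missing match says only that the letters are not in this window.
Creld2: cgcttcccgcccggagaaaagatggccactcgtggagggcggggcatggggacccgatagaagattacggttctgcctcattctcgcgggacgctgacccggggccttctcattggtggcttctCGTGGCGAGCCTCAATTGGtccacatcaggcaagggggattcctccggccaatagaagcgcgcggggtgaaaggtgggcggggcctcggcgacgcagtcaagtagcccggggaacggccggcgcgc
Dnajc3: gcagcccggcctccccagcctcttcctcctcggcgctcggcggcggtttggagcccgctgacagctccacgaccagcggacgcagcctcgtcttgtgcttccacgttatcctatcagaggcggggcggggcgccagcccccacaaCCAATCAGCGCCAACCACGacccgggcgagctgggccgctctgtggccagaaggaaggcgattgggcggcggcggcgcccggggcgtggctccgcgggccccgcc
Herpud1: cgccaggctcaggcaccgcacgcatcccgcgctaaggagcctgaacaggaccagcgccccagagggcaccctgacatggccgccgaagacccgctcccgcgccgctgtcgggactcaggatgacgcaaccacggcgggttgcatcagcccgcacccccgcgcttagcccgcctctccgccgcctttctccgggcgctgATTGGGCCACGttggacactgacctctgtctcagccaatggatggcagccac
Sdf2l1: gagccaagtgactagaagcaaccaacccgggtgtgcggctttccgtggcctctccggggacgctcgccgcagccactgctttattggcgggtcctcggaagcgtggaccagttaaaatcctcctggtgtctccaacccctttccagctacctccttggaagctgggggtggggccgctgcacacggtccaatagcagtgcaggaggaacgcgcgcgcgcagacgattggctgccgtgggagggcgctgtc

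Other motifs gave a different picture. The unfolded protein response element, searched as TGACGTGG, was in none of the 29 promoters (0.714% of all genes). The composite element bound by ATF4 with a CEBP partner, searched as TGATGNAA, was in 4 of 29 (13.8%), namely Asns, Chac1, Herpud1 and Trib3, against 4.51% of all genes. Mthfd2, whose change was the largest in smooth muscle-like cells, had no match to any of the 4 motifs in this window.

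The 4 libraries held 76142840 to 99572011 unique molecular identifiers (UMIs, each marking 1 captured molecule), and 37259 cells were kept in all. Cells were clustered and named from marker genes, with the ending -like because the names were rebuilt from the counts. UMIs were summed per library and class, and levels are given as CPM, the UMIs of a gene relative to all UMIs of that class in that library on the usual CPM scale. A gene is said to have risen or fallen where the edgeR quasi-likelihood F test gave a Benjamini-Hochberg adjusted p below 0.05 over all genes tested in the class. Fold changes are on the log2 scale as AD_ABR minus AD, with the SE. Library pairs shared 11 to 28 kept cell barcodes, of 8451 to 9872 kept per library. The median depth per cell was lower in AD (5268 and 7185 UMIs) than in AD_ABR (9452 and 8208), and Rn18s-rs5, a ribosomal RNA sequence, took more of the UMIs in AD (5.34 and 3.23%) than in AD_ABR (1.83 and 1.37%). In sums over a class, fewer cells in a given state and less RNA per cell cannot be told apart.

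Summed over the 33 genes, the level differed between classes as well as between groups. The 18 classes and clusters with at least 10 cells in every library ranged in their mean from 4560 CPM in T-like cells to 11588 CPM in cluster 11, whose leading genes were Cxcl5, Lif and Timp1. Cluster 11 had 12435 and 10814 CPM in AD and 12896 and 10206 in AD_ABR. Fibroblast-like cells had 7960 and 8591 CPM in AD and 10553 and 10235 in AD_ABR, so the groups did not overlap. Smooth muscle-like cells were lower, with 5046 and 4979 CPM in AD and 5687 and 5899 in AD_ABR, again without overlap. Endothelial-like cells had 6649 and 6390 CPM in AD and 8056 and 8028 in AD_ABR. Macrophage-like cells overlapped, with 6832 and 5869 CPM in AD and 6331 and 5984 in AD_ABR. Proliferating-like cells went the other way without overlap, with 11867 and 10724 CPM in AD and 9098 and 6357 in AD_ABR. That class joins clusters whose mix differed between the groups. Neutrophil-like cells were also lower, with 8601 and 4012 CPM in AD and 3301 and 3554 in AD_ABR, the latter from 21 and 10 cells.

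**Figure D1:**
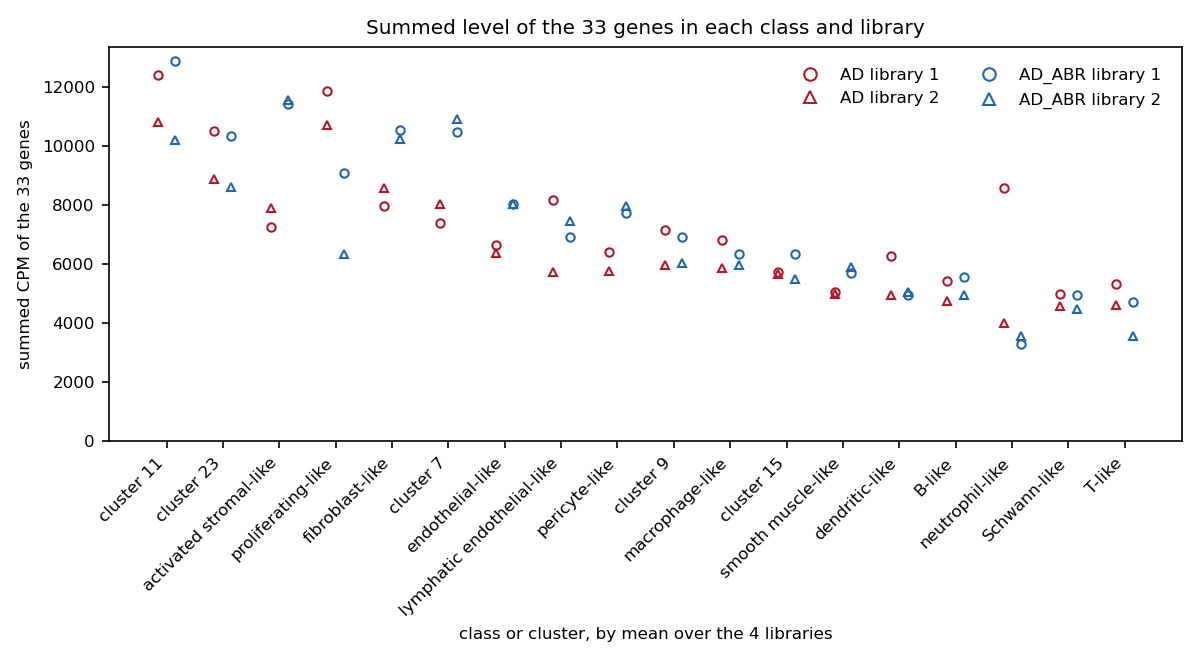
Summed level (CPM, linear axis from 0) of the 33 genes in the 18 classes and clusters with at least 10 cells in every library, ordered by the mean over the 4 libraries. Each symbol is 1 library, red for AD and blue for AD_ABR. The AD_ABR symbols lie above the AD symbols in activated stromal-like, fibroblast-like, cluster 7, endothelial-like, pericyte-like and smooth muscle-like cells. They lie below the AD symbols in proliferating-like and neutrophil-like cells. In neutrophil-like cells AD library 1 stands at 8601 CPM against 3301 to 4012 in the other libraries.

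Single genes differed in where they were highest. Of the 33 genes, 12 had their highest mean in cluster 11, among them Hsp90b1, Manf, Creld2, Pdia6 and Calr, and 5 had it in neutrophil-like cells. The neutrophil-like means include AD_ABR libraries of 21 and 10 cells and varied widely, as for Atf4 at 506 CPM (SD 573 over the libraries). There the sensors and transcription factors summed to 2275 CPM in AD library 1 and to 576 to 821 CPM in the other libraries. For all genes but 1 the highest class did not lie above the next in every library. The exception was Eif2ak3, which encodes the sensor PERK, at 107 CPM ± 16.1 (SD over the 4 libraries of both groups) in B-like cells. Its lowest class was the smooth muscle-like one, at 8.03 CPM ± 0.805. Creb3l2, an ER-membrane transcription factor known for raising secretory capacity in matrix-producing cells, was highest in endothelial-like cells at 212 CPM ± 26.1 and lowest in neutrophil-like cells at 4.01 ± 4.63. Sdf2l1 was highest in dendritic-like cells at 142 CPM ± 50.5, with macrophage-like cells next at 138 CPM. Herpud1 was highest in fibroblast-like cells at 303 CPM ± 93.9.

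Smooth muscle-like cells (AD libraries of 846 and 1846 cells, AD_ABR libraries of 3426 and 2751) had 13 changed genes of the set. With paquinimod 12 of the 33 genes rose and 1 fell, where 7.20% of all 14740 genes tested rose and 8.32% fell. The genes that rose were Mthfd2, Sdf2l1, Manf, Creld2, Xbp1, Derl2, Pdia6, Dnajb11, Dnajc3, Hsp90b1, Herpud1 and Hspa5, and the gene that fell was Atf4. All 33 passed the filter on low counts, the estimate was above 0 for 27 of them, and their median log2 fold change was 0.31 against -0.02 over all genes tested. The count was 7, none of them lower, without AD_ABR library 2, and 9 to 14 when another library was left out.

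Chaperones and co-chaperones gave 7 of the 12 genes that rose. Sdf2l1, a co-factor of the ER chaperone machinery, had 7.57 and 9.56 CPM in the AD libraries and 18.8 and 26.6 in AD_ABR. Its log2 fold change was 1.43 ± 0.19 (SE; edgeR adjusted p = 0.000228), or 2.70-fold, and both AD_ABR libraries lay above both AD libraries. Manf, an ER-resident protein that is also secreted under ER stress, had 146 and 165 CPM in AD and 259 and 306 in AD_ABR, a change of 0.93 ± 0.13 (edgeR adjusted p = 3.53e-05). Creld2, an ER stress-inducible protein with disulfide isomerase activity, stood at 20.8 and 21.5 CPM in AD and at 33.3 and 36.5 in AD_ABR, a change of 0.78 ± 0.13 (edgeR adjusted p = 0.000219). For both genes the groups were apart by more than the difference between the libraries of 1 group.

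The abundant chaperones moved by less. Hspa5 (BiP, the main ER chaperone, which also holds the 3 sensors inactive) had 777 and 806 CPM in AD and 968 and 970 in AD_ABR, a change of 0.36 ± 0.12 with an edgeR adjusted p of 0.0471. Hsp90b1 (GRP94) rose by 0.41, and Dnajc3 and Dnajb11, a pair of BiP co-chaperones of the J-domain family, rose by 0.42 and 0.50. The calls of Hspa5 and Hsp90b1 were lost when AD library 1 or either AD_ABR library was left out, with adjusted p up to 0.335 and 0.264. That of Dnajb11 was lost without AD library 1 or AD_ABR library 2, and that of Dnajc3 without either AD_ABR library. Calr, Hyou1, Dnajb9 and Canx did not pass the test. Calr, the lectin chaperone calreticulin, had 571 and 603 CPM in AD and 680 and 700 in AD_ABR (0.31 ± 0.12, edgeR adjusted p = 0.0883), and Canx, its membrane-bound relative, had 291 and 232 CPM against 241 and 237 (-0.05 ± 0.12).

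Among the disulfide isomerases Pdia6, which also acts on IRE1, had 151 and 163 CPM in AD and 215 and 255 in AD_ABR, a change of 0.65 ± 0.12 (edgeR adjusted p = 0.00111). The other three did not pass. Pdia4 had an estimate of 0.30, Pdia3 of 0.15, and P4hb, which is also a subunit of the collagen prolyl hydroxylase, of -0.01.

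In the degradation group Derl2, a channel component of ER-associated degradation, had 29.1 and 30.7 CPM in AD and 43.5 and 49.9 in AD_ABR, a change of 0.71 ± 0.12 (edgeR adjusted p = 0.000524). Herpud1, a scaffold of the degradation complex, rose by 0.40 ± 0.11, with 90.0 and 92.2 CPM in AD and 114 and 115 in AD_ABR, and lost its call when AD library 1 or either AD_ABR library was left out (adjusted p up to 0.162). The other 5 genes had estimates of 0.12 to 0.37 and did not pass, among them the ubiquitin ligase pair Syvn1 (0.37) and Sel1l (0.14) and the translocon subunit Sec61b (0.27).

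Transcription factors moved in opposite directions. Xbp1 had 90.5 and 81.7 CPM in AD and 140 and 136 in AD_ABR, a change of 0.76 ± 0.11 (edgeR adjusted p = 0.000108). Atf4 had 306 and 303 CPM in AD and 207 and 187 in AD_ABR, a change of -0.55 ± 0.12 (edgeR adjusted p = 0.00247), which was not called without AD_ABR library 2 (adjusted p 0.0921). The groups did not overlap for either gene. The 3 sensors did not pass the test, with estimates of 0.23 for Eif2ak3, -0.22 for Ern1 and -0.20 for Atf6. Ddit3 (CHOP, a transcription factor of prolonged ER stress) had 67.8 and 77.7 CPM in AD and 67.6 and 71.9 in AD_ABR, an estimate of 0.00 ± 0.12. The files list Ddit3 under a pair of overlapping identifiers, the second of which held 0 UMIs, so reads shared by both may be missing from its level.

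Of the ATF4-linked targets, Mthfd2, a mitochondrial enzyme of one-carbon metabolism, had the largest change of all 33 genes. It stood at 14.6 and 16.2 CPM in AD and at 41.0 and 55.0 in AD_ABR, a change of 1.69 ± 0.16 (edgeR adjusted p = 2.61e-06), or 3.23-fold. Asns (asparagine synthetase), Trib3 (a pseudokinase) and Chac1 (a glutathione-degrading enzyme) were near or below 3 CPM in every library and did not pass, with estimates of 0.52, 0.92 and 0.37. Mthfd2 rose and Atf4 transcript fell in the sums of this class, which do not show whether both changed in the same cells. Of the 13 called genes, 7 kept their call whichever library was left out, namely Mthfd2, Sdf2l1, Manf, Creld2, Xbp1, Pdia6 and Derl2.

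**Figure D2:**
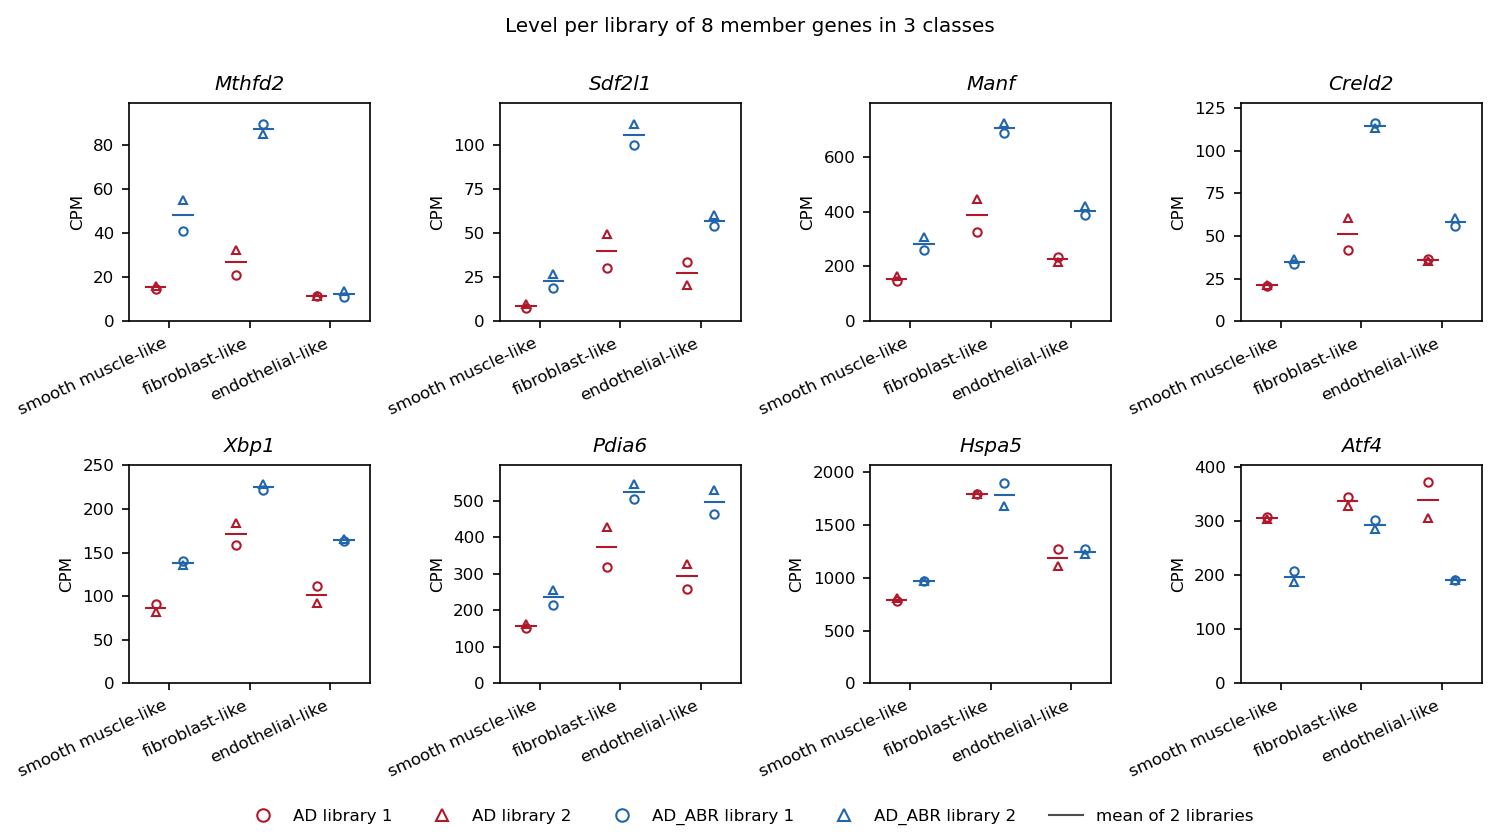
Level (CPM, linear axes from 0) of 8 genes in smooth muscle-like, fibroblast-like and endothelial-like cells. Each symbol is 1 library, red for AD and blue for AD_ABR, and the short lines are means of 2 libraries; Sdf2l1, Manf, Creld2, Xbp1 and Pdia6 lie higher in both AD_ABR libraries in all 3 classes, Atf4 lies lower, and Mthfd2 is separated in smooth muscle-like and fibroblast-like cells but not in endothelial-like cells, with 11.3 and 11.5 CPM in AD and 10.9 and 13.9 in AD_ABR.

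Both clusters of the smooth muscle-like class gave similar counts. In cluster 0 alone, the larger one, 12 of the 33 genes passed the test (15.2% of all genes in that fit), and in cluster 1 alone 11 did (8.67% of all genes). Mthfd2 changed by 1.60 and 1.73, Sdf2l1 by 1.41 and 1.39, and Atf4 by -0.54 and -0.60 in the clusters in that order. Markers of other cell types were present at unequal levels. The summed level of 8 neutrophil markers was 48.2 and 6.18 CPM in AD and 3.06 and 2.82 in AD_ABR, with Ly6g at 0 in all libraries, and that of 9 macrophage markers was 39.7 and 25.6 against 25.3 and 38.2 CPM. The 8 fibroblast markers summed to 2212 and 2310 CPM in AD and 2094 and 2271 in AD_ABR, with 1 higher and 3 lower by the test. Activated stromal markers summed to 1733 and 1897 CPM in AD and 1664 and 1675 in AD_ABR, with 2 lower, and pericyte markers to 752 and 842 against 796 and 726, with none called. NK and innate lymphoid markers summed to 170 and 175 CPM against 261 and 220, with 1 higher and 1 lower, and Klrb1c and Ncr1 at 0. The 8 proliferation markers summed to 20.4 and 13.2 CPM against 4.54 and 6.29, and 5 of them fell. Rn18s-rs5 stood at 61860 and 40816 CPM in AD and 20397 and 16024 in AD_ABR within the class and fell. The part of these markers in the results was not tested. A fit without Rn18s-rs5, Lars2 and mitochondrial genes was among the alternatives run, and it removes the counts of these genes alone. No called gene of the set changed sign in that fit. Whether what differs between the groups along with Rn18s-rs5 had a part was not tested. The 8 smooth muscle markers summed to 39332 and 44610 CPM in AD and to 48597 and 52809 in AD_ABR.

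Fibroblast-like cells (AD libraries of 968 and 2255 cells, AD_ABR libraries of 2442 and 3755) had 8 of the 33 genes higher with paquinimod and none lower, against 2.34% of 15115 genes tested higher and 2.02% lower. The genes were Mthfd2, Sdf2l1, Creld2, Manf, Herpud1, Dnajb11, Derl2 and Dnajc3, all of which also rose in smooth muscle-like cells. The estimate was above 0 for 28 of the 33 genes, with a median of 0.42 against 0.01 over all genes. The test at an unadjusted p below 0.05 held 19 genes, all higher. Without a filter on low counts, and with DESeq2, 16 genes rose. The shares over all genes at these settings are not given, so the 2 counts cannot be weighed against them.

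Among the fibroblast chaperones Sdf2l1 had 30.2 and 49.4 CPM in AD and 100 and 112 in AD_ABR, a change of 1.48 ± 0.22 (edgeR adjusted p = 0.0250). Creld2 had 41.8 and 60.4 CPM in AD and 116 and 113 in AD_ABR, a change of 1.24 ± 0.17 (edgeR adjusted p = 0.0154). Manf had 326 and 447 CPM in AD and 687 and 723 in AD_ABR, a change of 0.95 ± 0.17 (edgeR adjusted p = 0.0314). For each of them AD library 2 lay above AD library 1 and below both AD_ABR libraries. Dnajb11 rose from 96.1 and 124 CPM to 164 and 170, and Dnajc3 from 321 and 353 to 505 and 464. Hsp90b1 had 960 and 1130 CPM in AD and 1568 and 1508 in AD_ABR (0.65 ± 0.15) and missed the threshold with an edgeR adjusted p of 0.0513. Hspa5 overlapped between the groups, with 1791 and 1797 CPM in AD and 1895 and 1678 in AD_ABR (0.08 ± 0.14).

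Herpud1 had 215 and 234 CPM in the fibroblast-like cells of AD and 409 and 354 in those of AD_ABR, a change of 0.85 ± 0.14 (edgeR adjusted p = 0.0225). Derl2 had 46.1 and 53.1 CPM against 72.0 and 75.9, a change of 0.66 ± 0.12 (edgeR adjusted p = 0.0313). None of the 4 disulfide isomerases passed the test. Pdia6, with 317 and 428 CPM in AD and 504 and 544 in AD_ABR, had an adjusted p of 0.0870 by edgeR. No sensor or transcription factor passed either. Xbp1 had 159 and 184 CPM against 222 and 229 (0.48 ± 0.13, edgeR adjusted p = 0.0726), and Atf4 had 343 and 328 CPM against 301 and 284 (-0.11 ± 0.12). Mthfd2 had 20.8 and 32.5 CPM in AD and 89.5 and 85.0 in AD_ABR, a change of 1.77 ± 0.19 (edgeR adjusted p = 0.0117), or 3.41-fold. Of the 8 calls 7 were kept whichever library was left out, and that of Dnajc3 was lost without either AD_ABR library (adjusted p up to 0.213).

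The fibroblast-like class changed its makeup between the groups. Cluster 3, with Pi16, Cd248 and Igfbp6 among its leading genes, held 466 of the 968 and 1160 of the 2255 cells in AD. Cluster 2, led by Fmod, Hhip and Cpz, held most of the class in AD_ABR library 1 and the most in AD_ABR library 2, with 1311 and 1702 cells. In cluster 2 alone 6 of the 33 genes passed the test (1.07% of all genes in that fit), 5 of them among the 8 above, with Mthfd2 at 1.47 and Sdf2l1 at 1.81. In cluster 4 alone 4 passed (0.598% of all genes), with Mthfd2 at 1.22 and not called (adjusted p 0.129). In cluster 3 alone none passed, by edgeR, where 0.339% of all genes did. There Sdf2l1 stood at 1.40 (adjusted p 0.0698), Creld2 at 0.97, Manf at 0.87 and Mthfd2 at 0.53 (adjusted p 0.212). Herpud1 stood at 0.93, 0.37 and 0.87 in clusters 2, 3 and 4. Dnajb11, Dnajc3 and Derl2, called in the whole class, passed in none of the 3 clusters alone, and Mthfd2 was below its whole-class estimate of 1.77 in each of them. Rn18s-rs5 stood at 50770 and 29175 CPM in AD and 13445 and 10067 in AD_ABR within the class. Its part in the results was not tested beyond the fit without its counts, named above.

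**Figure D3:**
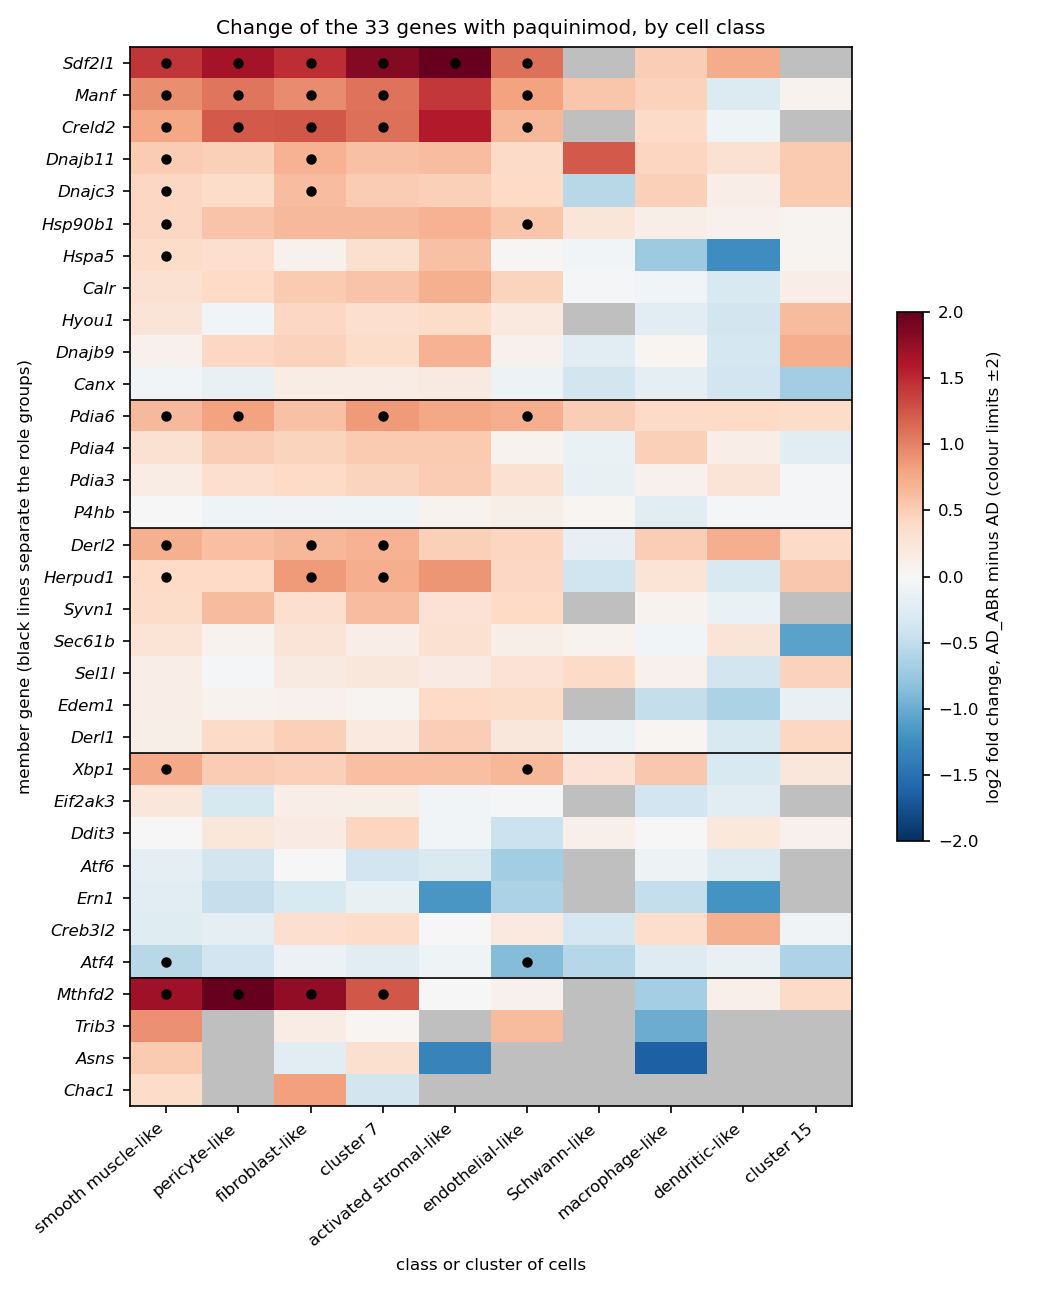
Log2 fold change (AD_ABR minus AD, colour, limits at ±2) of the 33 genes in the 10 classes and clusters with at least 50 cells in every library, in rows ordered by role and, within it, by the change in smooth muscle-like cells. Black dots mark an edgeR adjusted p below 0.05 and grey fields genes under the filter on low counts; dots stand in 6 columns for Sdf2l1, in 5 for Manf and Creld2, and in none of the Schwann-like, macrophage-like, dendritic-like and cluster 15 columns.

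Endothelial-like cells (AD libraries of 200 and 478 cells, AD_ABR libraries of 238 and 275) had 6 of the 31 genes tested higher and 1 lower, against 1.52% of 10762 genes tested higher and 4.02% lower. Asns and Chac1 were under the filter. Sdf2l1 had 33.9 and 20.6 CPM in AD and 54.1 and 60.3 in AD_ABR, a change of 1.10 ± 0.22 (edgeR adjusted p = 0.00893). Manf had 234 and 217 CPM against 386 and 422, a change of 0.81 ± 0.13 (edgeR adjusted p = 0.00329). Pdia6 had 259 and 327 CPM against 464 and 528, a change of 0.72 ± 0.15 (edgeR adjusted p = 0.0146). Creld2 rose by 0.67, Xbp1 by 0.67 and Hsp90b1 by 0.55.

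Atf4 fell in endothelial-like cells, from 371 and 305 CPM in AD to 190 and 191 in AD_ABR, a change of -0.86 ± 0.14 (edgeR adjusted p = 0.00282). The sensors Atf6 (61.9 and 43.5 against 29.7 and 35.7 CPM; -0.69 ± 0.20) and Ern1 (37.5 and 30.5 against 19.2 and 25.4 CPM; -0.63 ± 0.22) had lower estimates that did not pass, at edgeR adjusted p of 0.0676 and 0.115. Mthfd2 had 11.3 and 11.5 CPM in AD and 10.9 and 13.9 in AD_ABR, an estimate of 0.08 ± 0.30. All 7 endothelial calls were lost when either AD_ABR library was left out. With doublets kept in, none of the 7 passed and Asns did. DESeq2 called 4 of the 7, Hsp90b1, Manf, Pdia6 and Atf4.

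The difference between classes was tested by an interaction term. Against fibroblast-like cells the change in smooth muscle-like cells differed for 1 of the 33 genes, Creb3l2, where 5.17% of all genes tested differed. Creb3l2 had 155 and 156 CPM in AD and 124 and 124 in AD_ABR in smooth muscle-like cells, and 89.0 and 84.6 against 96.5 and 108 CPM in fibroblast-like cells, a difference of -0.55 ± 0.13 (edgeR adjusted p = 0.0106) that was not called without AD library 2 or either AD_ABR library. Against endothelial-like cells the difference passed for Mthfd2 alone, at 1.60 ± 0.28 (edgeR adjusted p = 0.00118), where 3.93% of genes differed. Against macrophage-like cells it also passed for Mthfd2 alone, at 2.39 ± 0.25 (edgeR adjusted p = 0.0238), where 0.268% of genes differed. The call against endothelial-like cells was kept whichever library was left out, and that against macrophage-like cells was lost without either AD_ABR library. For Sdf2l1, Manf and Xbp1 the differences from fibroblast-like cells were 0.01 ± 0.16, -0.01 ± 0.13 and 0.30 ± 0.14 and did not pass. For Hspa5 the difference from macrophage-like cells was 0.98 ± 0.33 (edgeR adjusted p = 0.267).

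Further stromal populations are given with fewer cells behind them. Pericyte-like cells (169, 269, 626 and 472 cells in the order AD 1, AD 2, AD_ABR 1 and AD_ABR 2) had 5 of 30 genes tested higher, against 0.239% of genes, namely Mthfd2, Sdf2l1, Creld2, Manf and Pdia6. Mthfd2 went from 14.6 and 18.6 CPM in AD to 68.0 and 105 in AD_ABR, a change of 2.32 ± 0.27. The pericyte name rests on weak grounds, since 1 of its 3 clusters had none of the marker genes among its 10 leading genes. Cluster 7, which took no name and had Prss12, Hhip and Tnfrsf11b among its leading genes, had 7 of 33 genes higher, against 0.534% of genes. These were Sdf2l1, Mthfd2, Creld2, Manf, Pdia6, Herpud1 and Derl2, with Sdf2l1 going from 28.3 and 26.5 CPM to 89.7 and 106, a change of 1.83 ± 0.17. In activated stromal-like cells, led by Col10a1 and Col8a1, Sdf2l1 was the 1 gene of the 31 tested that rose, and 0.00970% of all genes did. It had 29.5 and 27.4 CPM in AD and 117 and 114 in AD_ABR, a change of 2.01 ± 0.21, and was not called without AD_ABR library 1 (adjusted p 0.0832). Mthfd2 in these cells had 31.9 and 37.5 CPM against 31.6 and 41.0. Whichever library was left out, the calls of Mthfd2 and Sdf2l1 were kept in pericyte-like cells. In cluster 7 those of Mthfd2, Sdf2l1, Manf and Creld2 were. The other calls in pericyte-like cells and cluster 7 were lost when 1 or the other AD_ABR library was left out.

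No gene of the set passed the test in Schwann-like cells (21 tested) or in cluster 15 (24 tested, a shallow cluster without a name), where 0.161% and 0.144% of genes passed in either direction by edgeR. DESeq2 called none in either, and at an unadjusted p below 0.05 there were 1 and 4. For that level no share over all genes is given. Over the 10 classes and clusters tested, 13 of the 33 genes passed in at least 1, and 20 passed in none. The share of all genes that passed in at least 1 is not given, so the count cannot be weighed against it. The classes come from the same libraries and are not independent of each other. Sdf2l1 rose in 6, Manf and Creld2 in 5, and Mthfd2 and Pdia6 in 4. Atf4 fell in 2 classes and its estimate was below 0 in all 10, from -0.86 to -0.08. The estimate of Ern1 was below 0 in all 8 classes in which it was tested, from -1.19 to -0.15, and that of Atf6 in all 8, without a call.

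Macrophage-like cells (AD libraries of 1038 and 521 cells, AD_ABR libraries of 421 and 925) had none of 32 genes called by edgeR, against 0.294% of 11219 genes in either direction. At an unadjusted p below 0.05 there were 8, of which 6 were higher, with no share over all genes given at that level. DESeq2 called none. The makeup of the class differed between the groups: cluster 14, with Cd163, Folr2 and Lyve1 among its leading genes, made up 24 and 142 of the AD cells and 166 and 395 of the AD_ABR cells. Cluster 5, with C1qa and Cx3cr1 among its leading genes, made up the rest. Sdf2l1 had 108 and 117 CPM in AD and 165 and 164 in AD_ABR (0.49 ± 0.16, edgeR adjusted p = 0.228), and Xbp1 87.3 and 114 against 158 and 145 (0.54 ± 0.18, edgeR adjusted p = 0.234). Neither gene overlapped between the groups. Hspa5 had 2382 CPM in AD library 1, 1302 in AD library 2, and 1263 and 1091 in AD_ABR (-0.72 ± 0.32, edgeR adjusted p = 0.349). The high value is that of a single library. Without AD library 2, so that AD library 1 stood alone for its group, the estimate of Hspa5 was -1.09.

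Dendritic-like cells (AD libraries of 604 and 562 cells, AD_ABR libraries of 95 and 159) had none of 30 genes called by edgeR, against 0.851% of 9404 genes. At an unadjusted p below 0.05 there were 6, with no share over all genes given at that level. DESeq2 called 1, Hspa5, at -1.24 (adjusted p 0.00146). Its level was 2033 CPM in AD library 1, 1038 in AD library 2, and 766 and 633 in AD_ABR, and edgeR gave -1.24 ± 0.31 with an adjusted p of 0.140. Without AD library 2 the estimate of Hspa5 was -1.66, and without AD_ABR library 1 it was -1.31. Sdf2l1 had 99.8 and 105 CPM in AD and 154 and 208 in AD_ABR (0.74 ± 0.21, edgeR adjusted p = 0.139).

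The high Hspa5 level of AD library 1 recurred in several other classes. In cluster 23, with Apod and Cxcl13 as leading genes, it was 4102 CPM in AD library 1 against 1529 to 2098 in the other libraries. In neutrophil-like cells, which were too few in AD_ABR (21 and 10 cells) for a test, Hspa5 had 2909 CPM in AD library 1, 738 in AD library 2, and 388 and 336 in AD_ABR. In T-like cells it had 1487 CPM in AD library 1 against 696 to 908 in the others, and in lymphatic endothelial-like cells 2701 against 910 to 1514. In smooth muscle-like and fibroblast-like cells AD library 1 did not stand apart from AD library 2. The neutrophil markers reached 581 CPM in the dendritic-like cells of AD library 1 and 131 CPM in its macrophage-like cells, against 3.04 to 28.3 and 40.8 to 79.0 CPM in the other libraries, with Ly6g at 0 in both classes. Their part in the Hspa5 values was not tested.

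**Figure D4:**
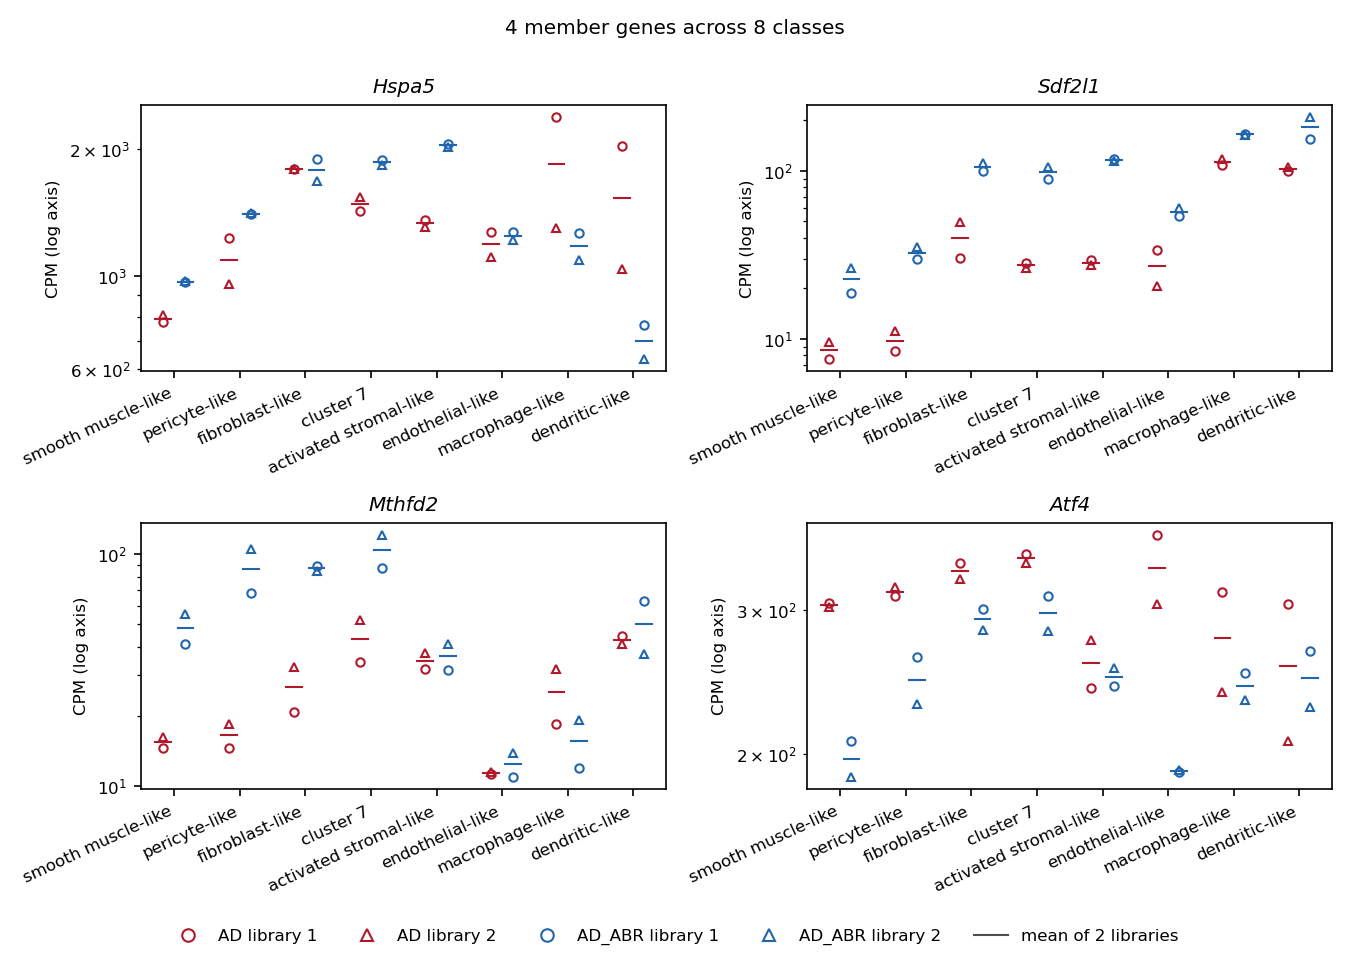
Level (CPM, log axes) of Hspa5, Sdf2l1, Mthfd2 and Atf4 in 8 of the classes tested. Each symbol is 1 library, red for AD and blue for AD_ABR, and short lines are means of 2 libraries; Hspa5 of AD library 1 stands at 2382 CPM in macrophage-like and 2033 CPM in dendritic-like cells above the other 3 libraries, Sdf2l1 lies higher in both AD_ABR libraries of every class shown, and Mthfd2 is separated upward in smooth muscle-like, pericyte-like and fibroblast-like cells and cluster 7.

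Summed over all kept cells, much of the pattern was not visible. Mthfd2 rose, from 39.1 and 36.4 CPM to 57.1 and 68.7 (0.84 ± 0.14, edgeR adjusted p = 0.0477), and Asns fell, from 12.7 and 13.4 CPM to 4.04 and 4.88 (-1.45 ± 0.17, edgeR adjusted p = 0.0325), where 0.975% of 20196 genes rose and 2.40% fell. Both calls were lost when either AD_ABR library was left out. The same sums mix cells whose numbers differed between the groups, and levels within classes differed as well. Cluster 11 numbered 444 and 638 cells in the AD libraries against 70 and 21 with paquinimod, and Asns within it had 27.3 and 25.9 CPM against 17.3 and 6.54. In proliferating-like cells Asns had 37.0 and 34.9 CPM against 3.03 and 1.69. That class joins clusters 18 and 24, and their mix differed between the groups. Cluster 24 held 74 of the 372 and 61 of the 364 AD cells, against 19 of 44 and 52 of 73 with paquinimod. The part of this mix in the Asns and Sec61b levels of the class was not tested. Neither cluster 11 nor the proliferating-like class had enough cells in every library for a test. The parts of cell numbers and of levels within classes were not tested. Sec61b had 517 and 528 CPM in AD and 341 and 358 in AD_ABR over all cells (-0.48 ± 0.14, edgeR adjusted p = 0.0947), and its estimate was 0.27, 0.25 and 0.11 in smooth muscle-like, fibroblast-like and endothelial-like cells. Within cluster 11 it had 979 and 1064 CPM against 461 and 497, in proliferating-like cells 969 and 1008 against 507 and 404, and in cluster 15 313 and 328 against 143 and 169 (-1.07 ± 0.27, edgeR adjusted p = 0.237).

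Set beside the promoter matches, the genes with ERSE were in part called and in part not. Of the 8, 5 rose in smooth muscle-like cells (Hspa5, Hsp90b1, Creld2, Dnajc3 and Pdia6), 2 in fibroblast-like cells and 3 in endothelial-like cells, with median log2 fold changes of 0.39, 0.55 and 0.43. Both genes with ERSE-II, Herpud1 and Dnajb11, rose in smooth muscle-like and in fibroblast-like cells, but neither was called in endothelial-like cells. Of the 19 genes whose promoter held neither motif, 4 rose in smooth muscle-like, 3 in fibroblast-like and 2 in endothelial-like cells, with medians of 0.23, 0.25 and 0.12. Among these 19, Atf4 fell in smooth muscle-like and in endothelial-like cells. In smooth muscle-like cells the calls of Hspa5, Hsp90b1, Dnajc3, Herpud1 and Dnajb11 depended on single libraries, as given above. Those of Creld2 and Pdia6, with ERSE, and of Mthfd2, Sdf2l1, Xbp1 and Derl2, with neither motif, did not. Over all genes tested 7.20%, 2.34% and 1.52% rose in these classes. Of the 4 genes with the ATF4 element, Herpud1 alone rose in smooth muscle-like and in fibroblast-like cells.

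Other genes of secretion and ER stress, in 7 lists that share no gene with the 33, are given by their counts, beside the shares of all genes tested in the class (in smooth muscle-like cells 7.20% higher and 8.32% lower, in fibroblast-like cells 2.34 and 2.02%, in endothelial-like cells 1.52 and 4.02%). The lists were written with earlier results of these data known, so the counts describe the lists and do not test them. Of 26 genes of the translocon, signal peptidase and glycosylation 9 rose in smooth muscle-like cells and none fell, with a median log2 fold change of 0.21. Ssr2, a subunit of the translocon-associated complex, rose from 89.0 and 108 CPM to 133 and 151 (0.59 ± 0.13), and Spcs1, of the signal peptidase, from 150 and 151 to 193 and 211 (0.50 ± 0.12). Of 33 further ER folding and degradation genes 9 rose and none fell, led by Selenos, a selenoprotein of ER-associated degradation, at 0.66 ± 0.12. Of 25 genes of ER to Golgi transport 7 rose and none fell, with the KDEL receptor Kdelr3 at 0.41 ± 0.12. Without AD library 1 these 3 counts were 3, 1 and 0, and without AD_ABR library 2 they were 2, 1 and 0. The median log2 fold change of all genes in this class was -0.02.

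In fibroblast-like cells 1, 3 and 1 genes of the same lists rose and 1 transport gene, Sec24a, fell, and in endothelial-like cells 0, 1 and 1 rose. Whether the lists differed between classes was not tested. These counts were higher in fibroblast-like cells without AD library 2, as was that of the folding list in endothelial-like cells. The shares over all genes in those fits are not given. Among 18 genes of collagen folding and modification tested in smooth muscle-like cells 3 rose and 1 fell. P4ha2 and P4ha1, catalytic subunits of the collagen prolyl hydroxylase of which P4hb is the other subunit, rose by 0.58 and 0.57, while P4hb was at -0.01. P4ha3, the third catalytic subunit, was the gene that fell, from 1.49 and 1.24 CPM to 0.259 and 0.506 (-1.77 ± 0.47). P4ha2 also rose in endothelial-like cells, by 0.81. Leaving out any library but AD library 2 gave 2 calls in this list in smooth muscle-like cells, and P4ha2 was not called in endothelial-like cells without either AD_ABR library.

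Of the genes of the ATF4 programme and of amino acid metabolism, 4 of 42 tested rose and 5 fell in smooth muscle-like cells, near the shares over all genes (7.20% and 8.32%), with a median of -0.09. Sesn2, a stress-inducible regulator of mTORC1 signalling, fell from 11.4 and 8.52 CPM to 3.86 and 3.76 (-1.28 ± 0.19). Atf3, a transcription factor raised by many stresses, fell from 1725 and 2189 CPM to 1195 and 1288 (-0.59 ± 0.14), while Eif4ebp1, a repressor of translation, rose from 59.3 and 73.4 CPM to 90.5 and 107 (0.63 ± 0.13). In fibroblast-like cells 4 of 43 rose, among them Phgdh, the first enzyme of serine synthesis (0.95), and Nupr1 (1.08), and 3 fell, among them the transporters Slc7a1 and Slc7a11 (-0.67 and -1.32). In endothelial-like cells none of 32 rose and 4 fell, with Atf3 at -1.39 and Ppp1r15a, which reverses the translational block set by PERK, at -0.81. Without AD_ABR library 2 the calls in this list came to 2 in smooth muscle-like, 4 in fibroblast-like and 1 in endothelial-like cells. Without AD_ABR library 1 the calls were also fewer in endothelial-like cells. Without AD library 1 they were fewer in smooth muscle-like and more in endothelial-like cells.

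The 22 genes of cytosolic heat shock and dissociation stress, which respond to handling of tissue as well as to stress in the animal, held calls in both directions. In smooth muscle-like cells 2 rose and 7 fell, with a median log2 fold change of 0.05, where 7.20% of all genes rose and 8.32% fell. In endothelial-like cells none rose and 8 fell, with a median of -0.60, where 1.52% of all genes rose and 4.02% fell. Bag3, a co-chaperone of HSP70, went from 310 and 289 CPM in AD to 176 and 141 in AD_ABR in smooth muscle-like cells (-0.84 ± 0.12), and Hspa1a from 3175 and 3020 to 1988 and 1699 (-0.68 ± 0.13). Without AD_ABR library 2 the list held 4 calls in smooth muscle-like cells and 0 in endothelial-like cells. Without AD_ABR library 1 it held fewer calls in both classes as well, and without AD library 2 more. Their part in the results for Atf4 and the ER chaperones was not tested. Of 15 stress sensors and ER-membrane factors tested in smooth muscle-like cells 3 rose and 3 fell, with Creb3 at 0.62 and the apoptosis genes Bcl2l11 and Bbc3 at -0.86 and -0.67, and 1 of 16 rose in fibroblast-like cells, Bloc1s1, a transcript known to be degraded by IRE1, at 0.64 ± 0.11.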

How the data were processed

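The deposited values are UMI counts per gene and cell barcode from 10x 3′ libraries, and per the file headers the authors made them with Cell Ranger 7.1.0. By contrast the submitters' processing notes name Cell Ranger 6.0, STAR, Seurat 4.0 and GRCm38. Barcodes with fewer than 200 genes or at least 20% mitochondrial UMIs were dropped, and doublets (665 to 934 per library) were removed. Cells were clustered with scanpy 1.11.5 (2000 variable genes, 30 principal components, 15 neighbours, Leiden resolution 1.0, leidenalg 0.10.2), giving 32 clusters named from marker lists. Raw counts were summed per library and class. Classes with at least 50 cells in every library were tested with edgeR 4.0.16 (R 4.3.3), using the quasi-likelihood F test, TMM scaling, a filter on low counts and Benjamini-Hochberg adjustment over all genes tested. The difference between classes was an interaction term. Alternatives were DESeq2 1.42.0, other scaling, filters and clusterings, a replicate block, and leaving out each library. A further one left out Rn18s-rs5, Lars2 and mitochondrial genes. Some of these, and the tests in smaller classes, were chosen after seeing the data. In leave-one-out fits the lone library of a group is assumed to vary like the other group. The scripts were tested on simulated data. Genes and lists were chosen with earlier results of these data known. Genes named from the 7 lists were up to 4 per list and class with the smallest adjusted p. Intervals and p-values cover these libraries only.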

Additional observations from a re-analysis of the deposited data

Results flagged for a closer look

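The change with paquinimod differed between cell classes for a gene of the set in 3 cases, each by the interaction term of the edgeR fit. For Creb3l2 the log2 fold change in smooth muscle-like cells minus that in fibroblast-like cells was -0.55 ± 0.13 (SE; edgeR adjusted p = 0.0106), lower with paquinimod in both AD_ABR libraries of the first class and higher in both of the second, although neither class's own change passed the test. For Mthfd2 the difference between smooth muscle-like and endothelial-like cells was 1.60 ± 0.28 (edgeR adjusted p = 0.00118). For Mthfd2 the difference between smooth muscle-like and macrophage-like cells was 2.39 ± 0.25 (edgeR adjusted p = 0.0238). Each is 1 of the 33 genes, where 5.17%, 3.93% and 0.268% of all genes tested differed in these comparisons, so the first and second counts are near the share over all genes. The Creb3l2 call was lost without AD library 2 or either AD_ABR library (adjusted p up to 0.135), and the Mthfd2 call against macrophage-like cells without either AD_ABR library (adjusted p up to 0.497).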

How the results depend on the processing

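No value of a gene of the set that was called as reported changed sign under the alternatives run; 449 such values kept their call and 89 lost it. Of 3752 values of genes not called as reported, 222 changed sign and 182 passed the test, among them Hsp90b1, Xbp1 and Pdia6 in fibroblast-like cells with DESeq2. Of the counts of called genes, that in smooth muscle-like cells (13) ranged from 7 to 14 when 1 library was left out, fibroblast-like (8) from 7 to 17, endothelial-like (7) from 0 to 13, macrophage-like (0) from 0 to 14, dendritic-like (0) from 0 to 4, all cells (2) from 0 to 10, Schwann-like (0) from 0 to 2, activated stromal-like (1) from 0 to 3, cluster 15 (0) from 0 to 1, cluster 7 (7) from 4 to 17 and pericyte-like (5) from 3 to 10. The counts of differing changes (1 each) ranged from 0 to 3 against fibroblast-like, 1 to 3 against endothelial-like and 0 to 9 against macrophage-like cells. Without a filter on low counts there were 16 in fibroblast-like, 1 in macrophage-like, 2 in dendritic-like, 4 in all, 3 in activated stromal-like cells and 12 in cluster 7, and 3, 2 and 4 for the differences in the order above. With DESeq2 there were 16 in fibroblast-like, 4 in endothelial-like, 1 in dendritic-like, 7 in all and 3 in activated stromal-like cells. Without doublet removal endothelial-like cells had 1, at Leiden resolution 0.5 macrophage-like cells had 2, and with relative log expression size factors the difference from endothelial-like cells held 2. In fibroblast cluster 3 alone there were 0 and in cluster 4 alone 4. The cause was not tested. The number of all genes called moved with the setting as well, so these counts alone say little about the set. Over all genes, smooth muscle-like cells had 934 to 3758 called (2288 as reported) and fibroblast-like cells 45 to 2430 (660 as reported).

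The replicate numbers are shared by the groups, but no label ties them to an animal or day, and with 2 pairs the correlation of deviations ran from -0.13 to 0.25 over classes. With the replicate block 12 genes were called in endothelial-like, 1 in dendritic-like, 0 in all, 0 in activated stromal-like and 10 in pericyte-like cells, 13 in cluster 7, 18 in smooth muscle-like and 11 in fibroblast-like cells. The shares over all genes in the block fits are not given, so these counts cannot be weighed against them. No block fit was made for the differences between classes. AD library 1 held 169 pericyte-like and 200 endothelial-like cells, and what deeper sampling would show was not tested.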
